A study of Homo sapiens with 8 samples.

Results

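Antimicrobial peptides and secreted defence proteins were followed across 4 treatments of DLD1 cells, a human colorectal cancer line. The 10 genes were DEFB1, DEFA5, DEFA6, LCN2, SLPI, PI3, LYZ, PLA2G2A, CAMP and REG4. They were chosen by name with their detection and change across the 4 groups in these arrays already known, so their values are given as a description, and the calls counted for them below support nothing. Probes were taken wherever the array file named the gene and the spot was not a control. These probes covered 9 of the 10 genes with 10 probes, 2 of them for REG4, out of 36337 gene names on the arrays. No probe carried the name LYZ, the gene of lysozyme, which was not analysed here.

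The cells received a control siRNA (siCONT) or 1 of 2 siRNAs against UHRF1 (siUHRF1-1 and siUHRF1-2) for 48 h, and then ethanol (mock) or 300 nM Trichostatin A (TSA) for a further 24 h. UHRF1 recruits the maintenance DNA methyltransferase to replicating DNA, and TSA inhibits histone deacetylases. Every group therefore came from the same line and received a transfected siRNA. Each of the 4 groups had 2 one-colour Agilent arrays, which for siCONT were called replicates and for UHRF1 depletion were 1 array for each siRNA. The sources used here do not say whether the siCONT arrays came from separate cultures.

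Colonic epithelium limits microbes with small cationic peptides that damage membranes, with proteins that bind iron-carrying siderophores, with enzymes that attack bacterial walls or lipids, and with inhibitors that restrain the host's own proteases. Beta-defensin 1 is made by many epithelia without a stimulus. The alpha-defensins DEFA5 and DEFA6 mark Paneth cells of the small intestine. CAMP, LCN2 and SLPI are also products of neutrophils and are switched on in epithelial cells under many conditions.

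The level of a probe is the log2 of its processed intensity minus the 75th percentile of the same array, so levels were compared between arrays for 1 probe and never between probes. A probe counted as detected where it was well above background, as the scanner software judged it. Between 43.3% and 48.0% of the 50599 probes were detected on an array. The 2 siCONT arrays of an agent differed by 1.16 and 1.08 times the noise between spots of 1 array, under mock and TSA, which is close to that noise, so no SD is given for siCONT. The fit nevertheless took all 8 arrays as separate, and counts of calls with the siCONT arrays of an agent averaged to 1 sample are given beside it. The arrays of the 2 UHRF1 siRNAs differed by 12.6 and 10.1 times that noise, and their mean ± SD (n = 2 siRNAs) is given. All arrays lay on 1 slide, mock in row 1 and TSA in row 2, so TSA and slide row cannot be told apart. In both rows siCONT lay in columns 1 and 2, siUHRF1-1 in column 3 and siUHRF1-2 in column 4. UHRF1 depletion, and the difference between the siRNAs, therefore cannot be told apart from slide column. The brighter UHRF1 probe had mean levels of 1.99 in siCONT mock, 0.16 in depleted mock, 1.03 in siCONT TSA and −1.85 in depleted TSA cells, so the targeted transcript was lower with both siRNAs under each agent. TSA in siCONT cells went with −0.97 on this probe and −1.13 on the other UHRF1 probe. On the brighter probe depletion was 3.56-fold under mock and 7.33-fold under TSA, so its degree differed between the agents.

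Detection of the 9 measured genes moved with the treatment. SLPI, PLA2G2A and REG4 were detected on all 8 arrays, DEFA5 and DEFA6 on none, and DEFB1, LCN2, PI3 and CAMP on some. In siCONT mock cells 3 of the 9 genes were detected on both arrays, in depleted mock cells 4, in siCONT TSA cells 7 and in depleted TSA cells 6. The 9 genes fell into a silent pair, a group whose detection differed between treatments and a group present throughout.

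**Figure D1:**
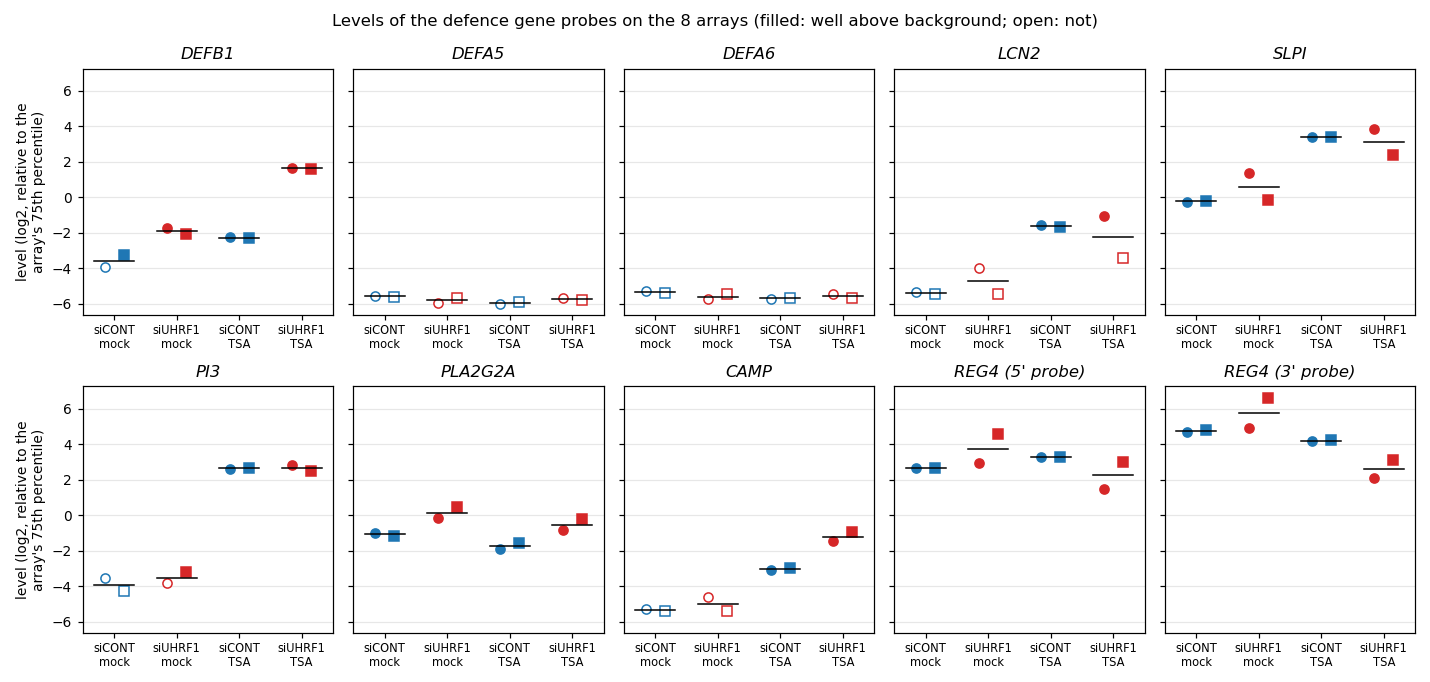
Level of each defence gene probe (y axis, log2 relative to the array's 75th percentile) on the 8 arrays, by group on the x axis, with siCONT in blue and siUHRF1 in red, array or siRNA 1 as circles, array or siRNA 2 as squares, and group means as lines. PI3 lies between −4.27 and −3.22 in the mock groups and between 2.50 and 2.83 under TSA, while DEFA5 and DEFA6 have open symbols on all 8 arrays.

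DEFB1, the gene of beta-defensin 1, had its widest step where UHRF1 depletion and TSA were combined. Its probe lies on chromosome 8 of hg19, from 6728181 to 6728240 on the minus strand. The levels were −3.93 and −3.22 in siCONT mock cells, −1.75 with siUHRF1-1 and −2.09 with siUHRF1-2 under mock, −2.25 and −2.29 in siCONT TSA cells, and 1.66 and 1.62 with the 2 siRNAs under TSA. The depleted TSA arrays were above all 6 others, siCONT mock was the lowest group, and the other 4 arrays lay between −2.29 and −1.75. The first siCONT mock array was not well above background. The group mean for depleted TSA cells was 1.64 ± 0.03, against −1.92 ± 0.24 for depleted mock cells.

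In the fit, DEFB1 was 1.65 (SE 0.25) higher with UHRF1 depleted under mock and 1.30 higher with TSA in siCONT cells. With both against siCONT mock it was 5.22 higher, a 37.2-fold difference. Against the 1 of 2 siCONT mock arrays that was well above background, the folds were 2.465, 1.93 and 29.2 in that order. Within TSA-treated cells depletion went with 3.92, or 15.1-fold, and within depleted cells TSA went with 3.56, or 11.8-fold. The excess of the combination over the sum of the single changes was 2.26 (SE 0.35) on the log2 scale. With another background correction (normexp, which adds a constant of 50 and so shrinks differences between dim values) the single changes were 0.39 and 0.21, the combined change 2.90 and the excess 2.29.

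The alpha-defensins DEFA5 and DEFA6, peptides stored in Paneth cell granules, stayed at background throughout. Their probes lie at 6913022 to 6914063 and 6782402 to 6783376 of chromosome 8 in hg19 and span 1042 and 975 bases there, more than the 60 bases of a probe, so each crosses an exon junction. The intensities were 2.65 to 3.07 for DEFA5 and 3.23 to 3.53 for DEFA6. The lowest intensity of a probe judged well above background was 12.2 to 14.0, depending on the array. No fold is given for either gene.

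The silence extended over the neighbouring defensin genes. Within 250 kb of the DEFB1 probe, the 14 other gene names with a probe included DEFA3, DEFA4, DEFA5 and DEFA6 and several defensin pseudogenes, all at background on the 8 arrays. The 3 neighbours that were detected, MCPH1, AGPAT5 and an uncharacterised locus, changed by −0.51 to −0.14 with TSA in siCONT cells and by −0.71 to 0.37 with both treatments, where DEFB1 was 5.22 higher. Here and below, a probe is called where limma's test over all probes gave an adjusted p below 0.05 and the groups differed by 2-fold or more.

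PI3 and SLPI, 2 inhibitors of neutrophil elastase with a WAP domain, were both far higher under TSA whether or not UHRF1 was depleted. PI3, elafin, is probed at 43804645 to 43804704 on chromosome 20 (hg19, plus strand). Its levels were −3.55 and −4.27 in siCONT mock, −3.83 and −3.22 in depleted mock, 2.63 and 2.67 in siCONT TSA, and 2.83 and 2.50 in depleted TSA cells. The mock and TSA arrays did not overlap, and within an agent the siRNA groups did. PI3 was well above background on no siCONT mock array and on 1 of 2 depleted mock arrays. Against siCONT mock it was at least 66.1-fold higher in siCONT TSA cells and at least 66.6-fold higher in depleted TSA cells, the bound being set by the dimmest probe still detected on each siCONT mock array.

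The measured group means of PI3 were −3.91 in siCONT mock, −3.52 ± 0.43 in depleted mock, 2.65 in siCONT TSA and 2.66 ± 0.24 in depleted TSA cells. Depletion within TSA cells moved PI3 by 0.01 (SE 0.30). After normexp the TSA change in siCONT cells was 3.83 in place of 6.56.

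SLPI, the secretory leukocyte protease inhibitor, lies on the same chromosome with its probe at 43882220 to 43882279 (minus strand), 77.6 kb from that of PI3. Its levels were −0.28 and −0.18 in siCONT mock, 1.36 and −0.15 with siUHRF1-1 and siUHRF1-2 under mock, 3.41 and 3.39 in siCONT TSA, and 3.84 and 2.38 with the 2 siRNAs under TSA. All TSA arrays were above all mock arrays. TSA went with a 12.4-fold higher level in siCONT cells, a change of 3.64 (SE 0.61), and with 5.68-fold in depleted cells, a change of 2.51 (SE 0.61). The 2 siRNAs stood 1.51 apart under mock and 1.46 under TSA, siUHRF1-1 higher in both. Within each siRNA the TSA change was 2.48 and 2.53. Fits that left out 1 array, and so set the siRNAs against each other, gave TSA changes in depleted cells of 1.75 without siUHRF1-2 under mock, 1.78 without siUHRF1-1 under TSA, 3.26 without siUHRF1-1 under mock and 3.23 without siUHRF1-2 under TSA. Both treatments against siCONT mock gave 3.34, which was 2.62 without siUHRF1-1 and 4.07 without siUHRF1-2 under TSA.

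The 2 inhibitors sit in a gene cluster of WAP proteins and semenogelins. WFDC5, WFDC12, SEMG1 and SEMG2, which lie up to 65.6 kb from PI3, were at background on all arrays. Of the 8 genes within 250 kb of PI3 that were tested for TSA in siCONT cells, 1, SLPI, was called, where 18.6% of all probes were. For both treatments against siCONT mock 3 of 9 were called, and within 250 kb of LCN2 6 of 19, where 25.6% of all probes were. The other 7 neighbours of PI3 had TSA changes in siCONT cells from −1.60 for SDC4, a syndecan, to 0.19 for SYS1. WFDC2, which lies 226 kb from SLPI and encodes another WAP protein, was detected on the 2 depleted TSA arrays alone.

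**Figure D2:**
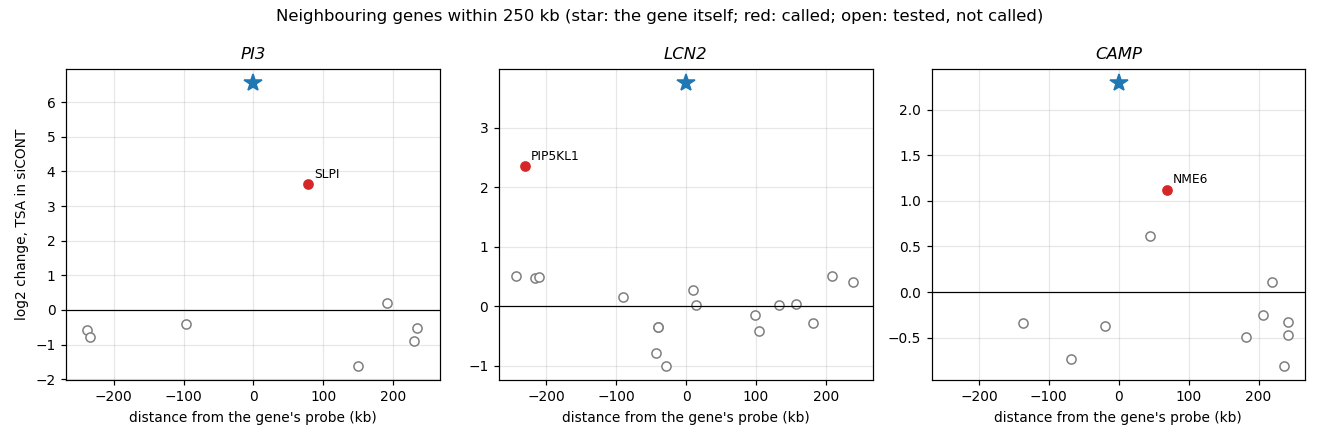
Log2 change with TSA in siCONT cells (y axis) of tested genes within 250 kb of PI3, LCN2 and CAMP (x axis, distance in kb), with the gene itself as a blue star, called neighbours in red and uncalled ones open. Each gene had 1 called neighbour, at 3.64 for SLPI beside PI3, 2.35 for PIP5KL1 beside LCN2 and 1.12 for NME6 beside CAMP.

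The promoter sequences of the remaining genes are shown before their values because UHRF1 acts at methylated CG dinucleotides, and these windows show how many such sites each start region holds. RefSeq windows of 300 bases (GRCh38.p14, 250 before the start and 50 after it) matched 4 of the 10 genes, LCN2, CAMP, REG4 and PLA2G2A, the last with 3 starts of which 1 is shown. CG dinucleotides are in capitals. The windows are chr9:128149203-128149502 on the plus strand for LCN2, chr3:48223245-48223544 on the plus strand for CAMP, chr1:119811411-119811710 on the minus strand for REG4 and chr1:19979610-19979909 on the minus strand for PLA2G2A.
LCN2: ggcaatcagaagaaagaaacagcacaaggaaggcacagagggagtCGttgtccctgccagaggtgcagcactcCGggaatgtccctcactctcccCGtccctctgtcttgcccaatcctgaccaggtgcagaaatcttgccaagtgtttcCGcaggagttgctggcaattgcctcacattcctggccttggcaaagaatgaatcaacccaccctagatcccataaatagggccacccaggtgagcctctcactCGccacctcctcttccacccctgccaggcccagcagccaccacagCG
CAMP: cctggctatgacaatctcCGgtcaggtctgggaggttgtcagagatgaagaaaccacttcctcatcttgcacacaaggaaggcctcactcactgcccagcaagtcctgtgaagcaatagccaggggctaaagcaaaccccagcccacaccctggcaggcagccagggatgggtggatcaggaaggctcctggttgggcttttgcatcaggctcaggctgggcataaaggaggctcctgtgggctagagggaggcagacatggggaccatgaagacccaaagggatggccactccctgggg
REG4: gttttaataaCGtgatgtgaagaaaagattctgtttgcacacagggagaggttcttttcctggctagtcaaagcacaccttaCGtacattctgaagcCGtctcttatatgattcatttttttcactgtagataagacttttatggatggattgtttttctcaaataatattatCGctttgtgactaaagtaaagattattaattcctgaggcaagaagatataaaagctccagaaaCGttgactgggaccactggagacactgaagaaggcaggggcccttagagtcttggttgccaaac
PLA2G2A: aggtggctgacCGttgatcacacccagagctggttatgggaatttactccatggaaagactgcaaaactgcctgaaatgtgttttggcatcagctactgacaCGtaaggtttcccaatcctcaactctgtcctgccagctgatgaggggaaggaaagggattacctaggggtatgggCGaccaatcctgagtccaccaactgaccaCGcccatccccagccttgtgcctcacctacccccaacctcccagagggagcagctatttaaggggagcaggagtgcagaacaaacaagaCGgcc

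All 4 windows were poor in CG. LCN2 held 6, REG4 and the window shown for PLA2G2A 5 each, and CAMP 1, against a median of 14 over the 35116 windows of the table. As few or fewer were found in 36.8% of all windows for LCN2, 33.7% for REG4 and PLA2G2A and 11.0% for CAMP. The letters TGACTCA, which AP-1 factors bind, occurred in none of the 4 and in 4.95% of all windows. TATAAA occurred once, in REG4 at base 220, and in 11.5% of windows. Both strands were searched, and no methylation was measured on these arrays.

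LCN2, lipocalin 2, takes up bacterial siderophores and so withholds iron. Its probe lies at 130914244 to 130914303 of chromosome 9 (hg19, plus strand). The levels were −5.35 and −5.43 in siCONT mock, −3.96 and −5.46 with the 2 siRNAs under mock, −1.58 and −1.68 in siCONT TSA, and −1.04 and −3.40 with siUHRF1-1 and siUHRF1-2 under TSA. Each TSA array was above each mock array, but only 3 of the 8 arrays were well above background, both siCONT TSA arrays and siUHRF1-1 under TSA. LCN2 was at least 3.39-fold higher in siCONT TSA than in siCONT mock cells, and no fold is given for depleted TSA cells, where 1 of the 2 arrays measured it. The group means were −5.39, −4.71 ± 1.07, −1.63 and −2.22 ± 1.67 in that order of groups.

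CAMP encodes cathelicidin, the precursor of the peptide LL-37, and was stepwise higher across the TSA groups. Its probe lies at 48266856 to 48266915 of chromosome 3 (hg19, plus strand). The levels were −5.31 and −5.37 in siCONT mock, −4.61 and −5.38 in depleted mock, −3.11 and −2.98 in siCONT TSA, and −1.45 and −0.95 in depleted TSA cells. No mock array was well above background and all 4 TSA arrays were, and the depleted TSA arrays lay above the siCONT TSA arrays. CAMP was at least 1.28-fold higher in siCONT TSA than in siCONT mock cells, and at least 4.58-fold higher in depleted TSA cells. Between the TSA groups, where every array measured it, the level was 3.58-fold higher with UHRF1 depleted, a change of 1.84 (SE 0.29). After normexp the same changes were 0.20, 0.92 and 0.72, so the size of the CAMP steps depended on how the background was handled.

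CAMP and LCN2 are also granule genes of neutrophils. Of 10 neutrophil and myeloid markers with a probe, 5 were above background on no array, MPO, ELANE, AZU1, CEACAM8 and ITGAM. The summed level of the 10, as intensity over the array's 75th percentile, was 1.36 to 1.41 in siCONT mock and 3.54 to 4.54 in depleted mock cells. It was 1.28 to 1.36 in siCONT TSA and 1.98 to 3.29 in depleted TSA cells. Without CD177, the brightest of them, the sum was 1.00 to 2.37 on the mock and 1.00 to 2.91 on the TSA arrays. The part of these markers in the CAMP and LCN2 values was not tested. All 9 colon epithelial markers were detected on all arrays. Of the 6 Paneth cell markers, DEFA5, DEFA6 and REG3A were above background on no array, and the summed level of the list was 2.74 to 3.74 on the mock arrays and 18.7 to 33.4 on the TSA arrays. Nearly all of that sum was SPINK4, and without it the list summed to 0.090 to 0.196 on the mock and 0.577 to 0.885 on the TSA arrays. MMP7, ITLN2 and SPINK4 of that list are also among the other defence genes given below. Every array held RNA of the DLD1 line. In such bulk RNA, a change in all cells and a change in some of them cannot be told apart.

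PLA2G2A, the secreted phospholipase that hydrolyses bacterial membranes and modifies intestinal tumour number in mice, was higher with UHRF1 depleted under either agent. Its probe spans 269 bases of chromosome 1, from 20305011 to 20305279 (hg19, minus strand), and so crosses an exon junction. The levels were −0.98 and −1.16 in siCONT mock, −0.16 and 0.45 in depleted mock, −1.93 and −1.58 in siCONT TSA, and −0.85 and −0.19 in depleted TSA cells. Under each agent the depleted arrays were above the siCONT arrays. Depletion went with 1.22 (SE 0.30) under mock and 1.23 (SE 0.30) under TSA, 2.33-fold and 2.34-fold. The change was not called under mock (limma adjusted p = 0.0586) and was called under TSA (limma adjusted p = 0.0398). With the siCONT arrays averaged neither was called (limma adjusted p = 0.506 and 0.311). TSA went with −0.68 in siCONT and −0.67 in depleted cells. With both treatments it lay 0.55 (SE 0.30) above siCONT mock. Scaling each array to its median in place of the 75th percentile made the depletion change under TSA 0.88.

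REG4, a lectin-like secreted protein of enteroendocrine and goblet cells, was measured by 2 probes on chromosome 1 (hg19, minus strand). The 5' probe lies at 120351407 to 120351466 and the 3' probe at 120337140 to 120337199. The 3' probe read 4.71 and 4.77 in siCONT mock, 4.93 and 6.62 with the 2 siRNAs under mock, 4.17 and 4.21 in siCONT TSA, and 2.08 and 3.12 with the 2 siRNAs under TSA. The 5' probe read 2.65 and 2.64, 2.94 and 4.57, 3.26 and 3.25, and 1.50 and 2.99 on the same arrays. On both probes the depleted mock arrays lay above the siCONT mock arrays, and the depleted TSA arrays lay below the siCONT TSA arrays.

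The probes of REG4 differed over TSA in siCONT cells, where the change was −0.55 on the 3' probe and 0.61 on the 5' probe. In depleted cells TSA went with −3.17 (SE 0.58) on the 3' probe, a 9.02-fold lower level, and −1.51 (SE 0.64) on the 5' probe. On the 3' probe it was −2.85 within siUHRF1-1 and −3.50 within siUHRF1-2, and the fitted change was −2.33 without siUHRF1-2 under mock and −4.02 without siUHRF1-1 under mock. Against siCONT mock the combination gave −2.14 on the 3' probe, or 4.40-fold lower, and −0.40 on the 5' probe. The fall on the 3' probe was −1.62 without siUHRF1-1 under TSA. The 2 siRNAs were 1.63 and 1.69 apart under mock on the 5' and 3' probes, siUHRF1-2 higher.

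The 2 UHRF1 siRNAs are compared here for genes detected on both arrays. Over the 19900 probes detected on all arrays, the SD of the difference between the siRNAs was 0.49 under mock and 0.42 under TSA. The DEFB1 difference was −0.34 under mock and −0.04 under TSA, within 1 SD. SLPI differed by 3.1 and 3.4 SD under mock and TSA with siUHRF1-1 higher, and the REG4 3' probe by 3.5 and 2.5 SD in the other direction. PLA2G2A differed by 0.62 under mock and 0.66 under TSA, or 1.3 and 1.6 SD, with siUHRF1-2 higher. With 1 array for each siRNA and agent these differences have no replicate of their own.

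**Figure D3:**
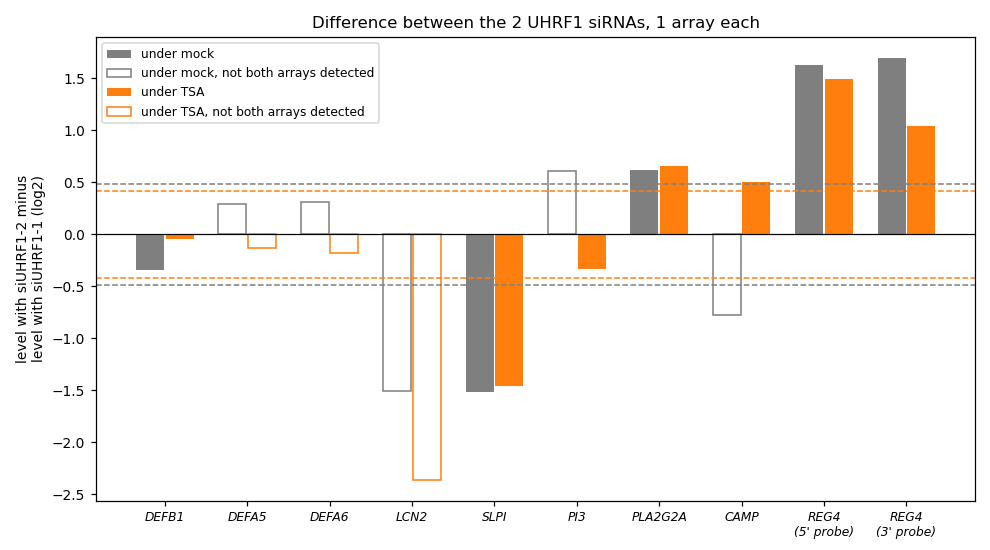
Level with siUHRF1-2 minus level with siUHRF1-1 (y axis, log2) for each defence gene probe (x axis), under mock in grey and under TSA in orange, 1 array per siRNA and agent, with open bars where not both arrays were well above background; dashed lines mark 1 SD of the same difference over all probes detected on every array, 0.49 and 0.42. SLPI and LCN2, the latter with open bars, lie below these lines under both agents. PLA2G2A and both REG4 probes lie above them under both agents.

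Counts over the 9 genes are set beside the share of all tested probes called in the same comparison, and nothing is read from them because the genes were chosen with these changes known. UHRF1 depletion under mock gave 1 call, higher, among the 4 genes tested, with 4.12% of 22396 probes called. TSA in siCONT cells gave 5 calls of 7, all higher (DEFB1, LCN2, SLPI, PI3 and CAMP), with 18.6% of probes called. Both treatments against siCONT mock gave 4 higher and 1 lower of 6, with 25.6% of probes called. Depletion under TSA gave 3 higher of 7 (DEFB1, PLA2G2A and CAMP), with 8.27% called, and 2 higher and 1 lower with each array scaled to its median. TSA in depleted cells gave 4 higher and 1 lower of 6, with 20.7% called, and 4 and 2 with the median. The excess of the combination gave 1 of 7, DEFB1, with 4.89% called. LCN2 was not tested in the combination because it was detected on 1 of the 2 depleted TSA arrays. With the siCONT arrays of an agent averaged, the 6 counts became 0, 1, 3, 1, 4 and 0 in limma, with 2 and 1 at an unadjusted p under 0.05 where the count was 0.

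**Figure D4:**
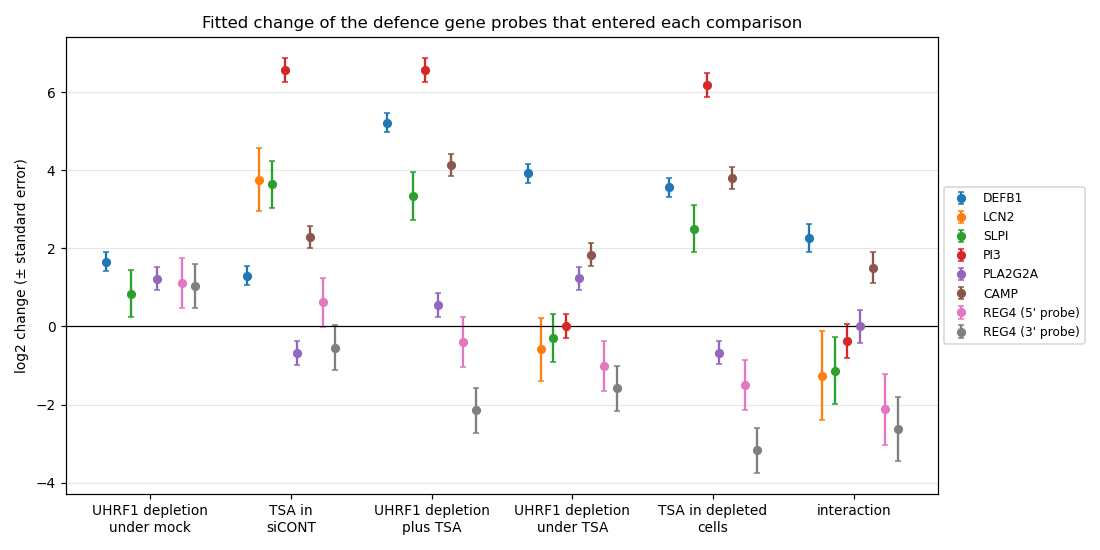
Fitted log2 change ± standard error (y axis) of each defence gene probe in the 6 comparisons (x axis) it entered. PI3 lies at 6.56, 6.57 and 6.18 in the 3 comparisons of TSA with mock arrays and at 0.01 for depletion under TSA, and DEFB1 is above 0 in all 6.

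DEFB1 and PI3 had different companions on the array. The named genes whose levels over the 8 arrays lay closest to PI3, after each probe was centred on its own mean, were RGS9 (root mean square difference 0.39), CLIP4 (0.45) and ALPP (0.58). For DEFB1 they included C21orf90 (0.38) and ASMT (0.51). ALPP, placental alkaline phosphatase, had group means of −1.51, −1.25, 3.88 and 4.78 in the order siCONT mock, depleted mock, siCONT TSA and depleted TSA. ASMT, the last enzyme of melatonin synthesis, had −5.33, −4.58, −4.74 and −0.92.

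Beyond these genes, 208 other genes of epithelial defence in 12 lists were examined, of which 202 had a probe and 86 were above background on no array. These lists too were chosen with earlier results of these data known. The shares called below, set beside those of all probes, are therefore a description, and nothing is read from them. Defensins were the quietest list. Of 32 other defensin genes with a probe, 29 were above background on no array, and at most 2 entered a comparison. BPI fold and peptidoglycan recognition proteins were above background on no array for 9 of 11. Cytokine receptors were the opposite case, with 11 of 12 detected on all arrays.

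For UHRF1 depletion under mock, 8 of the 86 other defence genes tested rose and 3 fell, 12.8% against 4.12% of all probes, with a median change of −0.02 against −0.10. With the siCONT arrays averaged, limma called none of the 86, although 13 passed at an unadjusted p under 0.05. ZG16B, a secreted lectin, had levels of −2.17 and −2.22 in siCONT mock and 2.37 and 2.22 in depleted mock cells, a 22.5-fold rise (limma adjusted p = 0.0074, and 0.0847 with siCONT averaged). LGALS4, galectin-4 of the intestinal epithelium, rose 8.60-fold from 1.87 and 2.05 to 5.04 and 5.09 (limma adjusted p = 0.00198, and 0.062 averaged). PYCARD, the inflammasome adaptor, was at least 1.59-fold higher, and SPDEF, a transcription factor of secretory cells, rose by 1.66. NFKB2 fell by 1.39 and ANG, an RNase, by 1.21, and DUOXA1, a maturation factor of a hydrogen peroxide-producing oxidase, was at least 1.68-fold lower.

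TSA in siCONT cells split these genes. Of 93 tested, 12 rose and 16 fell, 30.1% called against 18.6% of all probes, with a median of −0.13 against −0.11. With siCONT averaged, 3 of them passed in limma. ITLN1, intelectin-1, which binds microbial sugars, was at least 7.75-fold higher, with levels of −4.27 and −5.64 in siCONT mock and −0.44 and −0.45 in siCONT TSA cells. SPINK1, a trypsin inhibitor, rose 15.1-fold, a change of 3.91 (SE 1.14), and SPINK4, a goblet cell product, 6.90-fold. ZG16, which binds bacterial peptidoglycan, rose 7.24-fold, or 4.69-fold against the 1 of 2 siCONT mock arrays that was well above background. LGALS4 fell 11.9-fold to −1.63 and −1.59, and LCN15, a lipocalin like LCN2, fell 11.7-fold from 2.82 and 2.74 to −0.58 and −0.95 (limma adjusted p = 0.000191, and 0.0324 with siCONT averaged). NOX1, the NADPH oxidase of colonocytes, was at least 4.79-fold lower. The 2 lipocalins thus had opposite directions, LCN2 higher and LCN15 lower under TSA.

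Both treatments against siCONT mock gave 19 rises and 15 falls among 99 tested, 34.3% against 25.6% of all probes, and 19 calls in all with siCONT averaged. With each array scaled to its median the split was 16 rises and 26 falls. ITLN1 was at least 12.8-fold and ITLN2 at least 4.66-fold higher. NOS2, the inducible nitric oxide synthase, was at least 6.03-fold higher, with levels of −5.03 and −5.05 in siCONT mock and −0.99 and −0.62 in depleted TSA cells. It was at background on both siCONT mock arrays and entered this comparison only through the depleted TSA cells. After normexp its change was 1.11 in place of 4.24. SPINK1 rose 21.4-fold. RNASE4, an RNase, fell 5.54-fold and LCN15 9.26-fold, and NOX1 was at least 4.19-fold lower.

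Depletion under TSA gave 10 rises and 2 falls among 97 tested, 12.4% against 8.27% of all probes, and 1 call with siCONT averaged. The split was 9 and 5 with the median, and 13 and 0 with the 75th percentile taken over probes detected on all arrays. ZG16B was at least 6.69-fold, ITLN2 at least 5.91-fold and WFDC2 at least 1.72-fold higher, and NOS2 rose 5.13-fold. KLF4, a transcription factor of goblet cells, fell 2.10-fold, and BPIFB2, a BPI fold protein, was at least 1.28-fold lower. The rises in ITLN2 and WFDC2 rested on probes detected in depleted TSA cells alone.

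TSA in depleted cells gave 18 rises and 19 falls among 100 tested, 37.0% against 20.7% of all probes, and 34 calls with siCONT averaged. The split was 13 rises and 26 falls with the median. ITLN1 rose 23.6-fold, or 10.9-fold against the 1 of 2 depleted mock arrays that was well above background. DMBT1, a bacteria-binding mucosal glycoprotein, ITLN2 and MMP7, a protease that activates alpha-defensins in mouse Paneth cells, were at least 5.38-fold, 5.37-fold and 3.82-fold higher. LGALS4 fell 33.5-fold from 5.04 and 5.09 to 0.08 and −0.07, and LCN15 22.5-fold. NOX1 was at least 14.3-fold lower. Among 23 transcription factors of defence genes tested here, 3 rose and 6 fell.

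**Figure D5:**
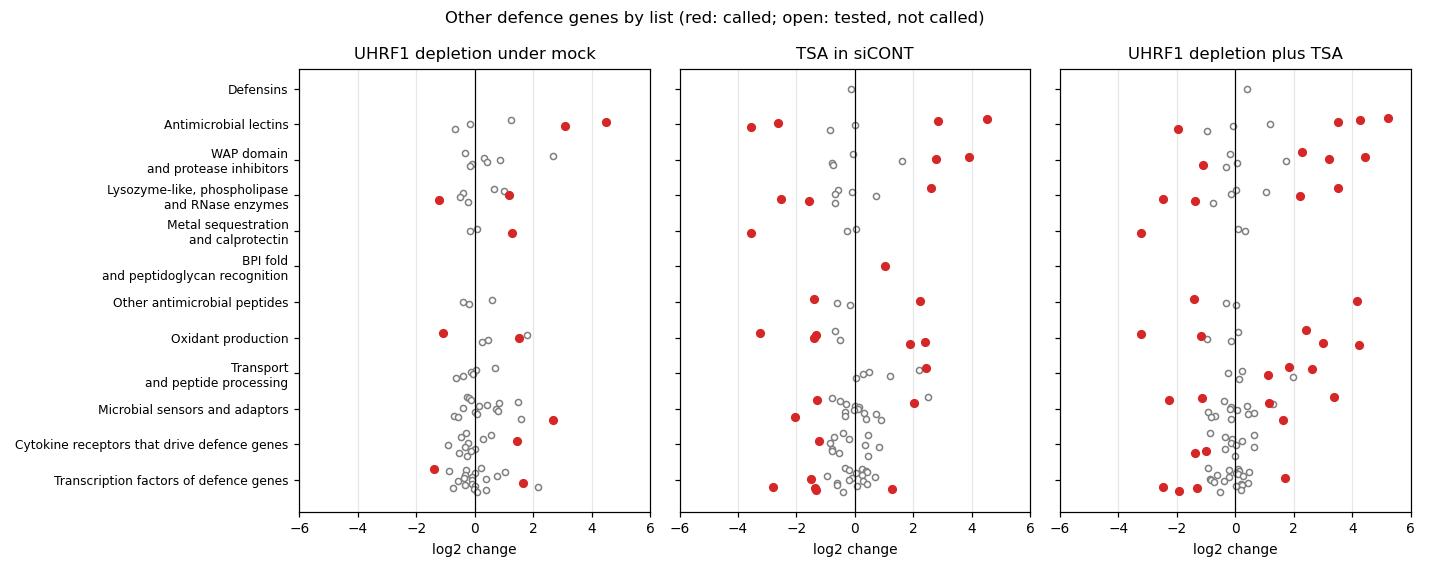
Log2 change (x axis) of the other defence genes that were tested, by list (y axis), for UHRF1 depletion under mock, TSA in siCONT and both against siCONT mock, with called genes in red and uncalled genes open. Red points lie on both sides of 0 in each panel, from LGALS4 at −3.57 to ITLN1 at 5.24.

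The excess of the combination over the single changes passed for 9 other defence genes above 0 and 3 below it among 103 tested, 11.7% against 4.89% of all probes, and for 0 with siCONT averaged, where 18 passed in limma at an unadjusted p under 0.05. The split was 5 and 6 with the median and 5 and 4 after quantile normalization. Above 0 were, among others, NOD2 (1.91, and 1.16 after normexp), the sensor of muramyl dipeptide, which was detected on all arrays, and DMBT1 (2.15, and 0.97 after normexp), which was detected on the TSA arrays alone. ITLN2 (3.34) and WFDC2 (2.60) were above background in depleted TSA cells alone, so their excess rests on 3 groups at background, and after normexp it was 1.10 and 0.56. Below 0 were LGALS4 (−1.50), IRAK1 (−1.33), a kinase of Toll-like receptor signalling, and KLF4 (−1.04).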

How the data were processed

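Total RNA of DLD1 cells was hybridised to 8 one-colour Agilent arrays. The authors deposited scanner output of Agilent Feature Extraction (10.7 per the labels, 10.7.3.1 per the file headers), and the processed intensity, background-subtracted by that software, was used. The deposited table of normalized intensity was an alternative. Probe coordinates are those of the files (hg19).

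Outlier spots were left out, spots of a probe were averaged, and the log2 of the intensity minus the array's 75th percentile over non-control probes was the level. limma 3.58.1 (R 4.3.3) fitted 4 group means to all 8 arrays, each as a replicate. A probe was tested if well above background on both arrays of a compared group, and called where the Benjamini-Hochberg adjusted p was below 0.05 with a difference of 2-fold or more. For each probe the fit pooled the spread within all 4 groups, so its SE was the same whichever pair of groups was compared. For SLPI the SE was 0.61 both for TSA in siCONT cells and for TSA in depleted cells. The p-values therefore measure this pooled spread between arrays, not the spread of the groups compared. Between siCONT arrays the spread may be technical, and between depleted arrays it includes the difference between the siRNAs. A gene with several probes is represented in counts by the brightest. Where a group was dim on every array, a fold is a bound against the higher of the dimmest detected probe and the probe itself. The number of arrays limits the precision.

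The genes and lists were chosen with earlier results of these data known. All 10 genes are named with every probe. Of the other lists, up to 4 called rises and 4 falls per comparison are named. Some genes that these rules pick are not reported here. The closest genes had the smallest root mean square difference of centred levels. Alternatives were other background corrections, scalings, filters, a replicate block, the methods' t-test, averaged siCONT arrays and leaving out each array. Scripts were tested on simulated data.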

Additional observations from a re-analysis of the deposited data

Results flagged for a closer look

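In limma over all 8 arrays, the excess passed for 10 of the other defence genes named above. Their lists were chosen with earlier results of these data known, so these passes are a description and support nothing. The excess of the combination on the log2 scale was 3.34 for ITLN2, 2.60 for WFDC2, 2.15 for DMBT1, 1.91 for NOD2, 1.84 for DUOXA1, 1.70 for NOS2 and 1.38 for ANG. It was −1.50 for LGALS4, −1.33 for IRAK1 and −1.04 for KLF4. ITLN2 and WFDC2 were well above background in depleted TSA cells alone and entered the fit only through that group. Their excess was 1.10 and 0.56 after normexp. DMBT1 and NOS2 were well above background on no mock array, and DUOXA1 on no depleted mock array. With the siCONT arrays of an agent averaged to 1 sample, the excess passed for 0 of the 103 other defence genes tested, with 18 at an unadjusted p under 0.05. The excess of DEFB1 was 2.26 and is likewise a description, because the gene was chosen with this value known. The cause of these differences was not tested.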

How the results depend on the processing

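No called change of the 10 genes changed sign under any alternative run. Counts are given for the 10 genes and then the other defence genes, in the order depletion under mock, TSA in siCONT, both against siCONT mock, depletion under TSA, TSA in depleted cells and the excess, where the main counts were 1, 5, 5, 3, 5 and 1, then 11, 28, 34, 12, 37 and 12. With the siCONT arrays averaged they were 0, 1, 3, 1, 4 and 0, then 0, 3, 19, 1, 34 and 0. With normexp they fell to 0 for depletion under mock, 2 for TSA in siCONT and 1 for depletion under TSA, then to 7, 14, 16 and 3 for the first 4. Without a filter on dim probes they were 0 for depletion under mock and 0 for the excess, then 6 and 2. Only probes detected on all arrays gave 1, 2, 1, 2 and 0 from the second comparison on, then 7, 13, 17, 5, 18 and 7, since fewer probes were tested. Scaling to the median, under which the median over all probes went from −0.14 to −0.54 for both against siCONT mock, left 0 for the excess in the 10 genes. The methods' t-test gave 0 for depletion under mock and 3 for TSA in depleted cells unadjusted, and after adjustment 0, 3, 0 and 0 for depletion under mock, both treatments, depletion under TSA and TSA in depleted cells, then 0, 15, 0 and 0. At an unadjusted p the latter test passed 12, 13 and 29 other genes where it gave 0. With the replicate number as a block the excess passed for 7 other defence genes, and no other count moved by more than 1.5 times. Deviations of same-numbered arrays correlated at 0.337 between the UHRF1 groups and at −0.0563 to 0.0743 elsewhere. In the UHRF1 groups the number is that of the siRNA, and elsewhere the numbers were not taken as pairs. TSA changes within each siRNA are given above for SLPI and the REG4 3' probe. Within siUHRF1-1 and siUHRF1-2 they were 3.42 and 3.71 for DEFB1 and −0.69 and −0.65 for PLA2G2A. For the REG4 5' probe they were −1.44 and −1.58. The remaining probes were not detected on all depleted arrays.

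Leaving out each array gave 0 to 3, 3 to 5, 4 to 6, 1 to 4, 4 to 6 and 0 to 3 calls for the 10 genes, and 3 to 18, 21 to 30, 26 to 38, 8 to 16, 35 to 41 and 0 to 17 for the others. DEFB1, the call for depletion under mock, was lost without siCONT mock replicate 1 (1.30) or either siCONT TSA array, and 3 genes passed without siUHRF1-1 under mock. TSA in siCONT passed for 3 genes without siCONT mock replicate 1 or either siCONT TSA array, and depletion under TSA for 1 without either of the latter. The DEFB1 excess was lost without siCONT mock replicate 2, either siCONT TSA array or siUHRF1-1 under TSA. For the other genes, depletion under mock passed for 3 without either siCONT mock array, 5 without either siCONT TSA array and 18 without siUHRF1-1 under mock. Their excess passed for 1 without siCONT mock replicate 1 or siCONT TSA replicate 2, and for 0 in limma without siCONT mock replicate 2 or siCONT TSA replicate 1, with 23 and 19 at an unadjusted p. Where a count for the 10 genes was 0, 0 to 3 passed at an unadjusted p. The causes were not tested. Signal near background limits the folds of LCN2, CAMP and PI3 against siCONT mock to bounds. For DEFB1, 1 of the 2 siCONT mock arrays was not well above background, so its folds against that group are also uncertain.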
